A study of Mus musculus with 6 samples.

Results

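The Polycomb group genes encode the subunits of the PRC1 and PRC2 chromatin complexes and of the enzyme that removes their ubiquitin mark. A list of 36 of them was looked up by gene identifier in RNA-Seq of mouse embryonic stem cells (mESC), *Ctrl* and *Tet iTKO*, and all 36 were found among the 22380 identifiers of the deposited values. Of these, 35 averaged at least 10 normalized counts over the 6 libraries and were tested together with all 10524 genes that passed this filter. *Cbx8* was below it. A normalized count is the number of reads on a gene divided by the size factor of its library.

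The study asked what happens in mESC soon after all 3 TET enzymes, the dioxygenases that oxidize methylated cytosine in DNA, are lost. *Tet iTKO* (inducible triple knockout) mESC carried floxed alleles of *Tet1*, *Tet2* and *Tet3*, whereas *Ctrl* mESC had none. Both groups carried 1 copy of CreERT2, driven by the human ubiquitin C promoter, and 1 copy of a *Rosa26* reporter that makes H2B-EGFP once Cre has acted, and both were cultured in 2i medium on mouse embryonic fibroblast feeders. Both received 1 µM 4-hydroxytamoxifen (tamoxifen in the labels), the ligand that activates CreERT2, for 2.5 days and were grown for 4 further days. *Ctrl* mESC thus had the same exposure to Cre. At day 6.5, live EGFP-positive, CD326-positive and Thy1.2-negative cells were sorted, and 3 Smart-Seq2 libraries (full-length cDNA of poly(A+) RNA, without strand information) were made for each group. The study's reporting summary describes the replicates of each genotype as mESC populations of 3 embryos. The caption of its RNA-Seq figure speaks of 3 independent experiments, and the labels only number the libraries. The p-values measure the spread between libraries, and whether this is a spread between embryos is not known.

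PRC2 is a methyltransferase that places H3K27me3, a histone mark of silenced developmental genes, through EZH2 or EZH1 held by EED and SUZ12. PRC1 is a ubiquitin ligase that marks histone H2A through RING1 or RNF2 (RING1B). A PCGF protein sets which PRC1 forms: canonical PRC1 also holds a CBX protein, which reads H3K27me3, and a PHC protein, whereas variant PRC1 holds RYBP or YAF2 in place of CBX. In mESC these complexes occupy CpG islands of lineage genes, and KDM2B and the PRC2 partners MTF2, PHF1 and PHF19 can bring them to unmethylated CpG-rich DNA.

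Normalized counts summed to between 4210784 and 4219665 in the *Ctrl* libraries and to between 3964824 and 3996522 in the *Tet iTKO* libraries, with 13431 to 13539 and 14024 to 14363 genes above 0. All 10 pluripotent stem cell markers listed, among them *Pou5f1*, *Nanog* and *Sox2*, were tested. Of the 10, 3 rose (*Esrrb*, *Klf4* and *Epcam*) and 4 fell (*Pou5f1*, *Nanog*, *Zfp42* and *Dppa5a*), beside 16.4% and 18.4% of all tested genes. After the correction for GC content and length described below, 3 were higher (*Tdgf1*, *Dppa5a* and *Epcam*) and 2 lower (*Pou5f1* and *Tfcp2l1*). *Dppa5a* changed direction there, from a log2 change of -0.39 to 0.12. The summed level of the 10 markers, uncorrected, was 28277 to 28720 in *Ctrl* and 24465 to 25421 in *Tet iTKO*. Of this sum, *Dppa5a* made up 11226 and 8573 on average. Of 12 fibroblast markers, which the feeders would carry, 5 were tested and 3 rose (*Col1a1*, *Col1a2* and *Col3a1*). The same 3 were higher after the correction, and none was lower in either fit. The summed level of the 12 was 305 to 316 in *Ctrl* and 529 to 574 in *Tet iTKO*, of which *Col1a1* alone made up 167 and 311 on average. The other markers had no common direction. *Fbn1* (means of 1.67 and 10.3) was higher in every *Tet iTKO* library, and *Col6a1* (4.33 and 12.7) was higher on average with overlapping groups. *Lox* (20.7 and 16.7), *Dcn* (6.67 and 3.00) and *Lum* (3.67 and 1.67) had lower means, but their groups overlapped. The *Dcn* values were 2, 3 and 15 in *Ctrl* and 1, 2 and 6 in *Tet iTKO*. Those of *Lum* were 2, 8 and 1, and 2, 2 and 1. *Postn*, *Twist2* and *S100a4* had at most 4 normalized counts in every library, and *Thy1*, the marker of the sort, had 30, 46 and 41 in *Ctrl* and 47, 35 and 23 in *Tet iTKO*. The part of these marker differences in the results that follow was not tested. The libraries hold the RNA of many cells, so a change in the share of cells that express a gene and a change in its RNA per cell cannot be told apart. *Tet1* had 696, 682 and 716 normalized counts in the *Ctrl* libraries and 787, 895 and 753 in those of *Tet iTKO* (log2 change 0.21, limma adjusted p = 0.026). After GC and length correction its change was 0.02 (limma adjusted p = 0.9). *Tet3* had 28, 13 and 13, against 10, 3 and 3 (log2 change -1.67, limma adjusted p = 0.035, and -2.11 after correction, limma adjusted p = 0.01). *Tet2* ranged from 170 to 249 and from 211 to 268. These values for whole genes cannot show the loss of the floxed exons.

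In *Tet iTKO* mESC, 6 of 9 tested canonical PRC1 genes rose (*Pcgf2*, *Cbx2*, *Cbx6*, *Cbx7*, *Phc1* and *Scmh1*). Of the 5 PRC2 core genes listed, 3 fell (*Eed*, *Ezh2* and *Suz12*) and 1 rose (*Ezh1*). The group of 9 joins *Pcgf2* and *Bmi1* with the tested *Cbx*, *Phc* and *Scmh1* genes, and is not itself among the sub-complex lists. It leaves out *Ring1* and *Rnf2*, which all PRC1 forms share and which did not pass (log2 changes of -0.35 and -0.05). Because earlier results of these data were known when genes were chosen, the count of 6 is no test of canonical PRC1. After a correction for GC content and length 3 of the 9 rose, and of the PRC2 core 1 fell (*Eed*) and 1 rose (*Rbbp7*). By limma with Benjamini-Hochberg adjustment over all 10524 genes, 16 of the 35 tested members (45.7%) passed an adjusted p under 0.05, beside 34.8% of all tested genes. Of these, 11 rose, where 16.4% of all tested genes rose, and 5 fell, where 18.4% of all tested genes fell. The groups did not overlap for 20 of the 35 members, beside 44.1% of all tested genes, and these 20 included all 16 members that passed. The median log2 change was 0.11 over the tested members and 0.01 over all tested genes. Changes were modest: the largest in size among members that passed was 1.24 on the log2 scale, for *Phf19*. That gene had a *Ctrl* mean of 9.67, below the filter, and was tested only because of its *Tet iTKO* values.

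In these libraries, genes of higher GC content and longer transcripts leaned higher in *Tet iTKO* relative to *Ctrl* (Spearman's rho 0.258 for GC content and 0.317 for length across 10457 genes, which are not independent replicates), and the members followed the same lean (0.511 and 0.359 across 35 members). The 11 members that rose had a median transcript GC content of 53.94% and the 5 that fell had 44.38%. Each gene's change was therefore also taken from a fit in which a smooth trend on GC content and length was subtracted in each library. There, 7 members passed, 5 higher and 2 lower, beside 26.0% of all genes in either direction, 12.5% higher and 13.5% lower. *Eed*, *Pcgf3*, *Cbx2*, *Phc1* and *Scmh1* passed in both fits with the same direction. The corrected values are given beside each member that changed its call. The family shares and the count of separate ratios of related members were not corrected.

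The promoters of 3 of these 5 genes stand in the RefSeq table used here with 1 start each, and they are shown because KDM2B, the PRC2 partners named above and TET1 are known to bind at CpG-rich promoters. The sequences are those of GRCm38.p6 from 250 bases before to 50 bases after the start, 5′ to 3′ on the strand of the gene, with every CG dinucleotide in capitals. *Pcgf3* lies on the plus strand (chr5:108461009-108461308), *Phc1* on the minus strand (chr6:122340178-122340477) and *Eed* on the minus strand (chr7:89980927-89981226).
Pcgf3: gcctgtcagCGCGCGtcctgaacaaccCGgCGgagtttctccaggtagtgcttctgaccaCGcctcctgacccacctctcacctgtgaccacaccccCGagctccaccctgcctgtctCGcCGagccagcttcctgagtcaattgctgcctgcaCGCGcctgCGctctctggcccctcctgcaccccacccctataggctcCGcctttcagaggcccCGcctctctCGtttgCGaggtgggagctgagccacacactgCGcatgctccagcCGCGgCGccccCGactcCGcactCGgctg
Phc1: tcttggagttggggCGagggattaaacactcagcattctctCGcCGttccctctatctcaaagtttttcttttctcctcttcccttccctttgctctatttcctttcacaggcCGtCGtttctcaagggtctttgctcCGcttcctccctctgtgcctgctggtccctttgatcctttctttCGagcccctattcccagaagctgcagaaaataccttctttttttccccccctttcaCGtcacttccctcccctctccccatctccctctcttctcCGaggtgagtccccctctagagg
Eed: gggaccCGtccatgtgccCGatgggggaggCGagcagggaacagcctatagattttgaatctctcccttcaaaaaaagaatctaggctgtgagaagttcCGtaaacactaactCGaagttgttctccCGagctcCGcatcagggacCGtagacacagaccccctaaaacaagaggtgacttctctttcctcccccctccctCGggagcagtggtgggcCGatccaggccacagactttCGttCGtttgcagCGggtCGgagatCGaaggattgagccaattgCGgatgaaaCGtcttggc

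The *Pcgf3* promoter held 23 CG dinucleotides, a number that 21.5% of all promoters in the table reach. The *Eed* promoter held 17, which 31.4% reach, and the *Phc1* promoter held 9, which 45.8% reach. For 31 members, 44 promoters were matched, with a median of 23 CG dinucleotides in 300 bases against 7 over all 32851 promoters in the table. Promoters of the genes tested in these mESC were not taken apart, so this difference need not be particular to the members. The median was 23 for the 11 promoters of members that rose and 30 for the 5 promoters of members that fell. CG letters count sites where methylation is possible and say nothing of methylation in these cells, which was not measured here.

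**Figure D1:**
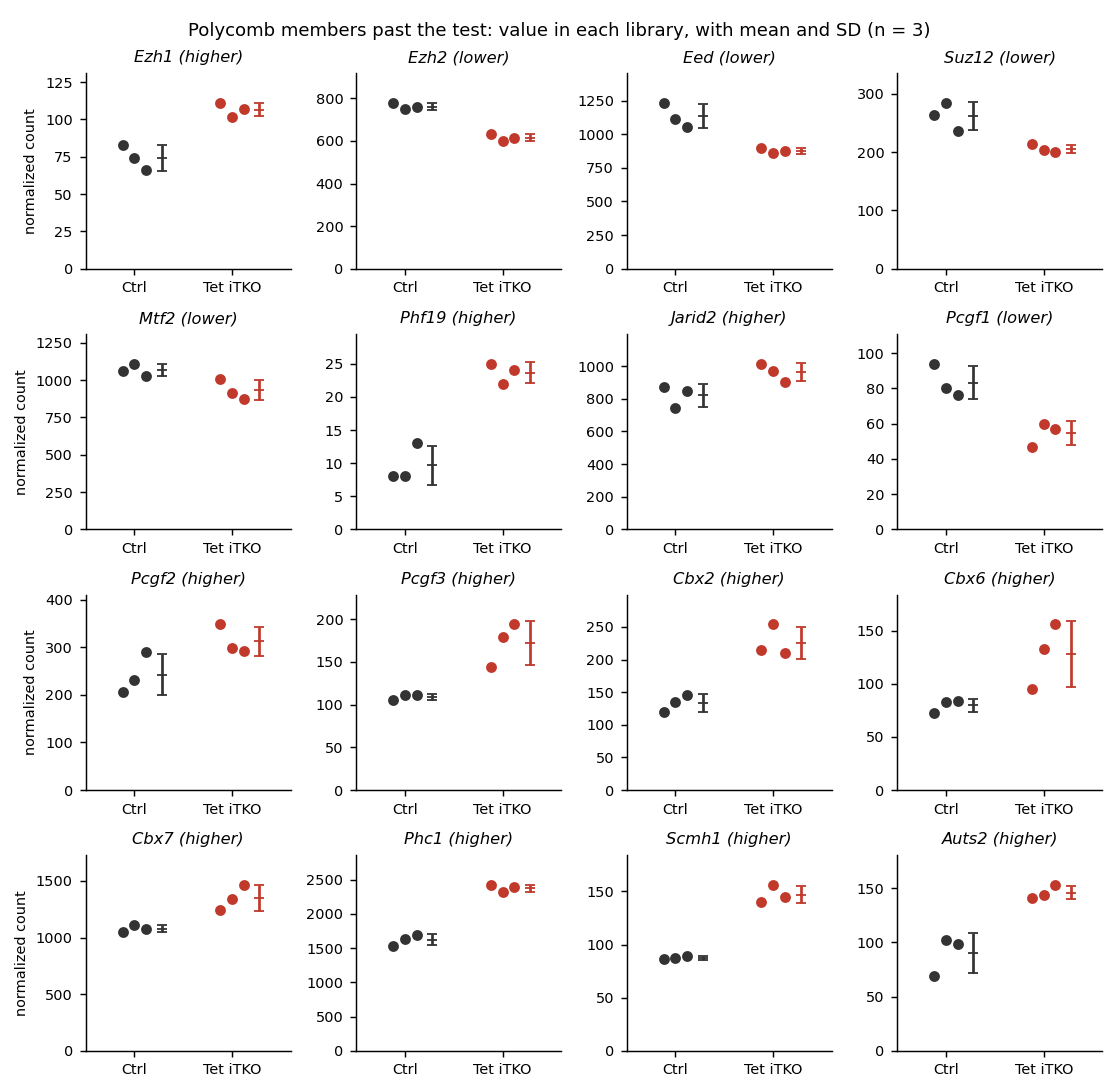
Normalized count in each library (points) of the 16 members with an adjusted p under 0.05, 1 panel a gene, with the mean and SD of each group as bars beside the points (n = 3; black, *Ctrl*; red, *Tet iTKO*; each axis starts at 0). The groups do not overlap in any panel, and the gap is wide beside the spread for *Phc1* and *Scmh1* and narrow for *Pcgf2* and *Mtf2*.

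Of the 5 PRC2 core genes listed, 3 fell and 1 rose, beside 18.4% and 16.4% of all tested genes. *Eed*, which encodes the subunit that binds H3K27me3 and stimulates the enzyme, had 1231, 1115 and 1055 normalized counts in the *Ctrl* libraries and 899, 857 and 876 in those of *Tet iTKO*. Every *Tet iTKO* library was below every *Ctrl* library. The mean fell from 1134 ± 89.5 to 877 ± 21.0 (SD, n = 3 each), a ratio of 0.774, with a log2 change of -0.37 (standard error, SE, 0.07; limma adjusted p = 5.6e-05) and -0.21 after GC and length correction (limma adjusted p = 0.016). *Eed* passed in each of the 17 alternative fits tried. *E230029C05Rik*, on the opposite strand, covers 12.63% of the *Eed* exons in the GENCODE M21 annotation of GRCm38, and reads of the 2 genes there cannot be told apart without strand.

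*Ezh2*, the main H3K27 methyltransferase of dividing cells, had 778, 748 and 758 normalized counts in the *Ctrl* libraries and 634, 599 and 616 in those of *Tet iTKO*. The groups were far apart relative to their spread, with means of 761 ± 15.3 and 616 ± 17.5 (SD, n = 3 each). The log2 change was -0.30 (SE 0.07, limma adjusted p = 0.0014). After GC and length correction it was -0.16, which did not pass (limma adjusted p = 0.11).

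*Suz12*, the scaffold subunit on which PRC2 assembles, had 264, 284 and 236 normalized counts in the *Ctrl* libraries and 214, 203 and 201 in those of *Tet iTKO*, again without overlap. Its log2 change of -0.34 (SE 0.12, limma adjusted p = 0.025) became -0.25 after correction (limma adjusted p = 0.11). It did not pass without *Ctrl* replicate 1 (limma adjusted p = 0.059), *Ctrl* replicate 2 (0.12), *Tet iTKO* replicate 2 (0.069) or *Tet iTKO* replicate 3 (0.071), nor at equal library totals (0.096) or without the variance trend (0.059).

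*Ezh1*, the paralogue of *Ezh2* that predominates in cells that no longer divide, moved the other way. It had 83, 74 and 66 normalized counts in the *Ctrl* libraries and 111, 102 and 107 in those of *Tet iTKO*, a log2 change of 0.52 (SE 0.19, limma adjusted p = 0.033). This call was fragile: the change was 0.30 after correction (limma adjusted p = 0.27), and the gene kept its call in 1 of the 6 fits that left out a library, with 0.44 (limma adjusted p = 0.1) without *Ctrl* replicate 3 at the low end. The adjusted p was 0.059 without *Ctrl* replicate 2, 0.09 without *Tet iTKO* replicate 1, 0.065 without *Tet iTKO* replicate 2, 0.08 without *Tet iTKO* replicate 3 and 0.063 under quantile normalization.

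On the scale of normalized counts per kb of exon, *Ezh2* stood at 272 ± 5.45 in *Ctrl* and *Ezh1* at 12.2 ± 1.40 (SD, n = 3 each). The share of *Ezh1* in the sum of both was 4.30% ± 0.417 in *Ctrl* and 7.38% ± 0.0976 in *Tet iTKO* (SD, n = 3 each). The log2 ratio of *Ezh1* to *Ezh2*, which does not depend on the size factor, was -3.21, -3.32 and -3.50 in *Ctrl* and -2.50, -2.54 and -2.51 in *Tet iTKO*. It was higher in all 3 *Tet iTKO* libraries by 0.83 on average (0.46 after GC and length correction), with an exact two-sided permutation p of 0.1, the smallest that 3 against 3 can give.

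*Rbbp7*, an X-linked histone-binding subunit, had the highest level per kb of all 36 members in both groups (807 ± 22.6 in *Ctrl* and 843 ± 50.7 in *Tet iTKO*, SD, n = 3 each). Its log2 change was 0.06 (limma adjusted p = 0.43), and after GC and length correction it was 0.24, which passed (limma adjusted p = 0.00045), as did 0.19 under quantile normalization (0.0071) and 0.15 at equal library totals (0.04). Its paralogue *Rbbp4*, from the wider list of Polycomb partners, had 2922, 2712 and 2648 normalized counts in the *Ctrl* libraries and 2100, 2105 and 2055 in those of *Tet iTKO*. It fell by 0.40 on the log2 scale (limma adjusted p = 1e-07) and by 0.38 after correction (limma adjusted p = 9.1e-08). The RBBP proteins also belong to other chromatin complexes.

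**Figure D2:**
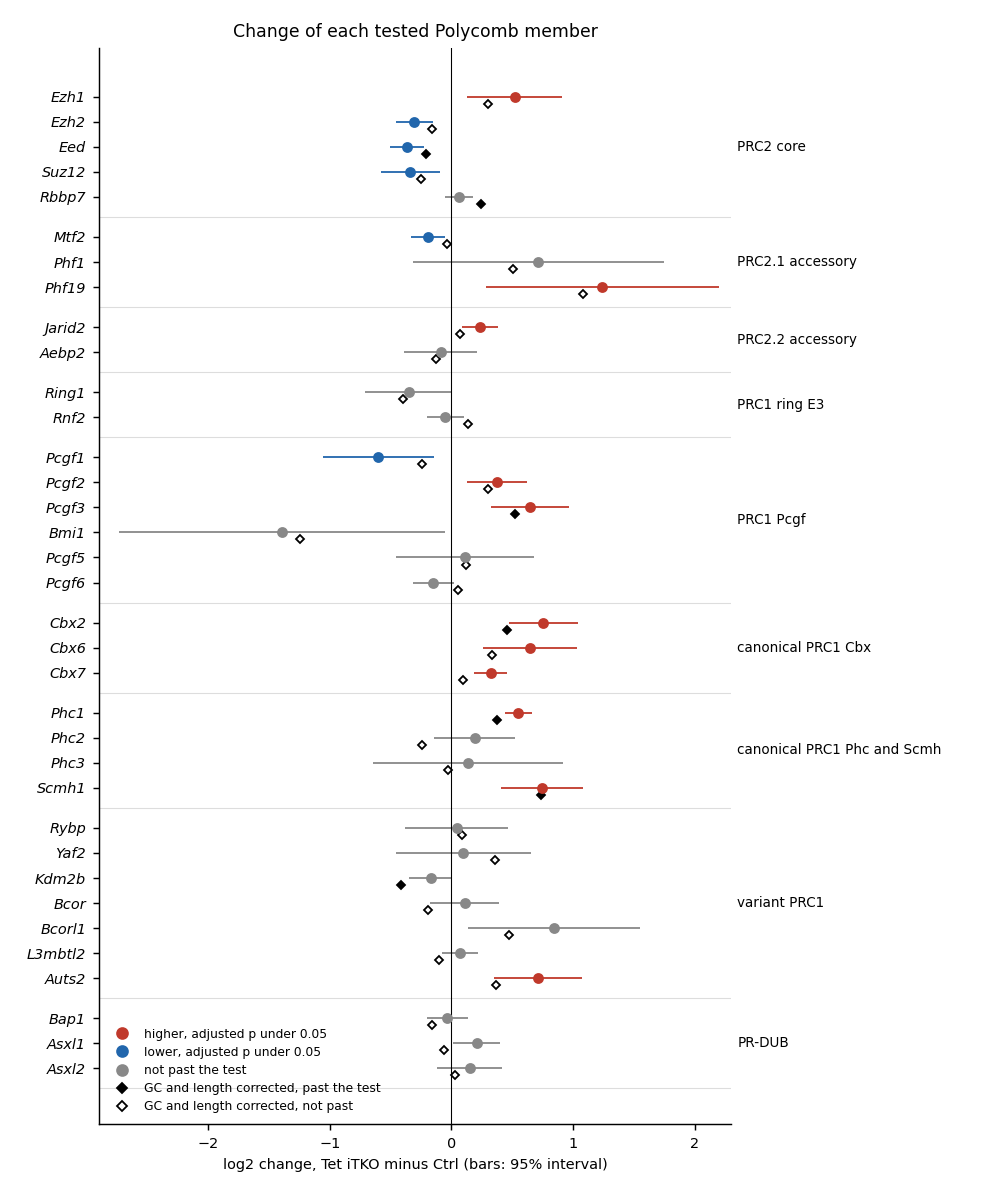
Log2 change (*Tet iTKO* minus *Ctrl*, on log2(normalized count + 1)) of the 35 tested members with 95% confidence intervals from limma, grouped by complex; circles are the uncorrected fit, coloured where adjusted p was under 0.05, and diamonds the value after GC and length correction, filled where it passed. *Phc1* and *Eed* have narrow intervals away from 0, and *Bmi1* and *Phf19* wide ones.

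Among the accessory subunits of PRC2, *Jarid2* and *Phf19* rose and *Mtf2* fell, and none of the 3 passed after correction. Over all tested genes, 16.4% rose and 18.4% fell. *Mtf2*, the main Polycomb-like protein of mESC, had 1060, 1110 and 1030 normalized counts in the *Ctrl* libraries and 1008, 916 and 876 in those of *Tet iTKO*. The groups came close without overlap, with a log2 change of -0.19 (SE 0.07, limma adjusted p = 0.025) that became -0.03 after correction (limma adjusted p = 0.75). The *Mtf2* call was lost without *Ctrl* replicate 2 (limma adjusted p = 0.11), *Tet iTKO* replicate 2 (0.079) or *Tet iTKO* replicate 3 (0.14), with genes of any mean above 0 (0.062), under quantile normalization (0.22), at equal library totals (0.22) and without the variance trend (0.17).

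*Phf19*, another Polycomb-like gene, had 8, 8 and 13 normalized counts in the *Ctrl* libraries and 25, 22 and 24 in those of *Tet iTKO*. Its log2 change of 1.24 (SE 0.47, limma adjusted p = 0.039) rests on few reads, and the *Ctrl* mean of 9.67 lay below the filter, so that the gene was tested only because of its *Tet iTKO* values. After correction the change was 1.08 (limma adjusted p = 0.089). The adjusted p was 0.074 without *Ctrl* replicate 1, 0.078 without *Ctrl* replicate 2, and 0.11, 0.093 and 0.1 without *Tet iTKO* replicate 1, 2 or 3. It was 0.061 with genes of any mean above 0, and 0.17 under quantile normalization, where the change was 0.83.

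*Phf1*, the third Polycomb-like gene, varied within both groups (6, 29 and 12 normalized counts in the *Ctrl* libraries and 11, 35 and 27 in *Tet iTKO*), and its log2 change of 0.72 did not pass (95% confidence interval -0.32 to 1.75, limma adjusted p = 0.29).

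*Jarid2*, which links PRC2 to ubiquitinated H2A, had 874, 742 and 846 normalized counts in the *Ctrl* libraries and 1014, 968 and 904 in those of *Tet iTKO*. All 3 *Tet iTKO* values were above the *Ctrl* values, with a log2 change of 0.23 (SE 0.07, limma adjusted p = 0.012) and 0.07 after correction (limma adjusted p = 0.49). Without *Ctrl* replicate 2 it was 0.16 (limma adjusted p = 0.13), and without *Tet iTKO* replicate 1 it was 0.19 (limma adjusted p = 0.075). The call was also lost with genes of any mean above 0 (limma adjusted p = 0.054) and without the variance trend (0.15). *Aebp2*, its partner in the same PRC2 form, overlapped between groups (161 ± 12.9 in *Ctrl* and 152 ± 20.6 in *Tet iTKO*, SD, n = 3 each). The log2 ratio of *Jarid2* to *Mtf2*, the marks of the 2 forms of PRC2, went from -0.38 ± 0.17 to 0.04 ± 0.04 (SD, n = 3 each) without overlap (exact permutation p = 0.1), and the difference of 0.43 became 0.11 after correction.

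*Epop*, a PRC2 partner in mESC from the wider list, had 1754, 1643 and 1784 normalized counts in the *Ctrl* libraries and 2349, 2353 and 2262 in those of *Tet iTKO*. It rose by 0.43 on the log2 scale (limma adjusted p = 6.8e-08), and the corrected value of 0.08 did not pass (limma adjusted p = 0.33).

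The catalytic pair of PRC1 did not pass. *Rnf2*, the dominant H2A ubiquitin ligase of mESC, had 687, 707 and 676 normalized counts in the *Ctrl* libraries and 650, 676 and 672 in those of *Tet iTKO*. The groups touched, and the log2 change was -0.05 (95% confidence interval -0.20 to 0.10, limma adjusted p = 0.64); it was above 0 under quantile normalization (0.03), equal library totals (0.03) and GC and length correction (0.13).

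*Ring1*, the paralogue of *Rnf2*, had 117, 118 and 115 normalized counts in the *Ctrl* libraries and 94, 96 and 84 in those of *Tet iTKO*. Every *Tet iTKO* library was lower, but the change of -0.35 did not pass (95% confidence interval -0.71 to 0.01, limma adjusted p = 0.12). It passed only with the variance taken without its trend on expression (limma adjusted p = 0.039). Per kb of exon, *Ring1* made up 21.8% ± 0.193 of the pair in *Ctrl* and 18.4% ± 1.17 in *Tet iTKO* (SD, n = 3 each, exact permutation p = 0.1).

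The 6 *Pcgf* genes, which define the PRC1 forms, moved in different directions: *Pcgf2* and *Pcgf3* rose, *Pcgf1* fell and the other 3 did not pass. Over all tested genes, 16.4% rose and 18.4% fell. *Pcgf3*, which with *Pcgf5* defines a variant PRC1 that acts broadly across the genome, had 105, 111 and 111 normalized counts in the *Ctrl* libraries and 144, 179 and 194 in those of *Tet iTKO*. The groups were well apart, with a ratio of means of 1.58 and a log2 change of 0.65 (SE 0.16, limma adjusted p = 0.0014), and 0.52 after correction (limma adjusted p = 0.011). *Pcgf3* passed in all 17 alternative fits. *Pcgf5* overlapped between groups, at 43.3 ± 7.23 and 47.0 ± 9.64 normalized counts (SD, n = 3 each).

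*Pcgf2* (*Mel18*), of canonical PRC1, had 206, 231 and 291 normalized counts in the *Ctrl* libraries and 348, 298 and 292 in those of *Tet iTKO*. The lowest *Tet iTKO* library exceeded the highest *Ctrl* library by 1 normalized count. The log2 change of 0.37 (SE 0.12, limma adjusted p = 0.014) was 0.30 after correction (limma adjusted p = 0.056). It did not pass without *Ctrl* replicate 1 (limma adjusted p = 0.11), *Ctrl* replicate 2 (0.054) or *Tet iTKO* replicate 1 (0.1), with genes of any mean above 0 (0.071) or without the variance trend (0.14).

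*Pcgf1*, of the variant PRC1 that KDM2B and BCOR bring to CpG islands, had 94, 80 and 76 normalized counts in the *Ctrl* libraries and 47, 60 and 57 in those of *Tet iTKO*. The groups were separate, with a log2 change of -0.60 (SE 0.22, limma adjusted p = 0.034). The corrected change was -0.24 (limma adjusted p = 0.46), and the adjusted p was 0.13 and 0.059 without *Ctrl* replicate 1 or 2, and 0.12 and 0.055 without *Tet iTKO* replicate 1 or 3. It was 0.054 with genes of any mean above 0 and 0.069 at equal library totals.

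*Bmi1*, the paralogue of *Pcgf2*, was low, with 18, 12 and 14 normalized counts in the *Ctrl* libraries and 3, 2 and 16 in those of *Tet iTKO*. *Tet iTKO* replicate 3 lay among the *Ctrl* libraries, and the change of -1.39 (SE 0.66) did not pass (limma adjusted p = 0.1). It was -0.91 without *Tet iTKO* replicate 2, and it passed under quantile normalization (-2.02, limma adjusted p = 0.027). Its *Tet iTKO* mean was below the filter. *Pcgf6*, of the germline-gene-repressing variant PRC1 with L3MBTL2, was lower in each *Tet iTKO* library (575, 589 and 546 normalized counts in the *Ctrl* libraries and 478, 543 and 521 in those of *Tet iTKO*), but did not pass (limma adjusted p = 0.16).

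Measured per kb of exon, *Pcgf6* led the family in both groups, with 57.8% ± 2.17 of the summed *Pcgf* level in *Ctrl* and 55.1% ± 1.52 in *Tet iTKO*, which overlapped. *Pcgf2* and *Pcgf1* were level in *Ctrl*, at 85.6 ± 15.4 and 84.3 ± 9.57 normalized counts per kb, and apart in *Tet iTKO*, at 110 ± 10.8 and 55.3 ± 6.89 (SD, n = 3 each). The *Pcgf1* share went from 18.5% ± 2.05 to 12.8% ± 1.15, the *Pcgf2* share from 18.8% ± 3.42 to 25.6% ± 3.46 and the *Pcgf3* share from 2.65% ± 0.0908 to 4.42% ± 0.552 (SD, n = 3 each). Each of these 3 shares was separate between groups, with an exact permutation p of 0.1.

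**Figure D3:**
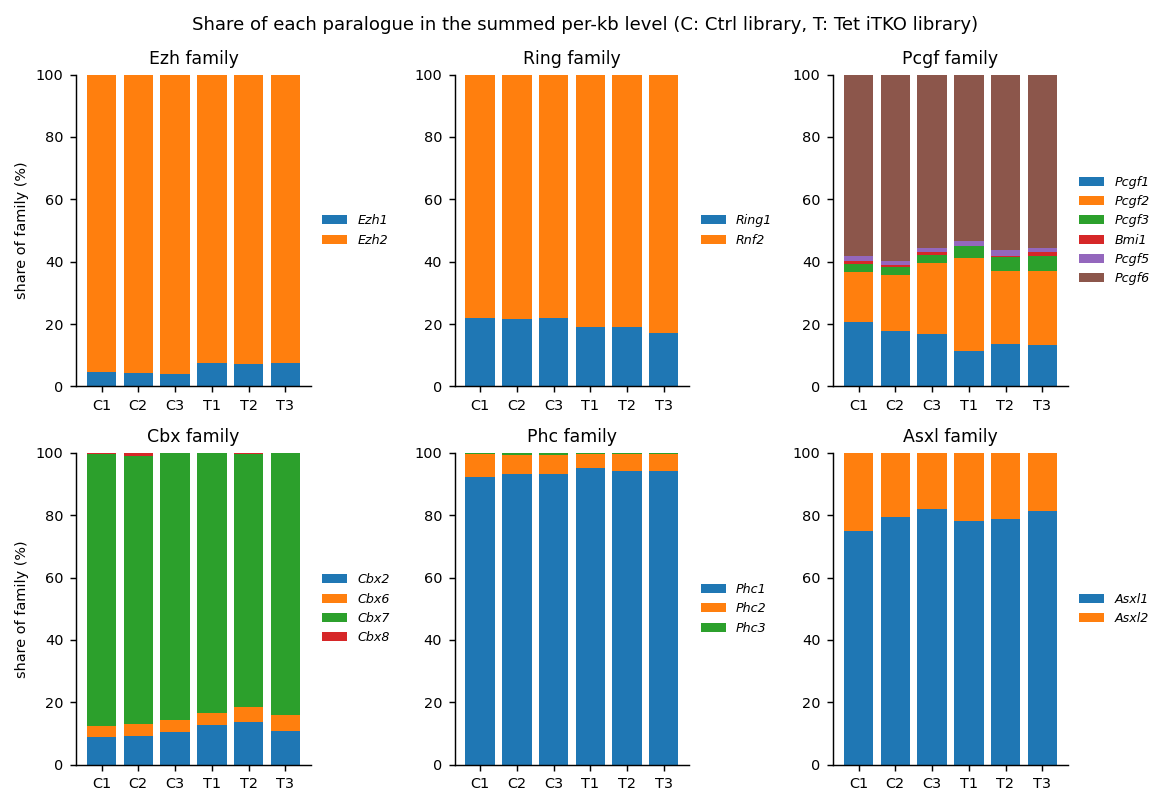
Share (%) of each paralogue in the summed normalized counts per kb of exon of its family, as stacked bars, 1 bar a library (C, *Ctrl*; T, *Tet iTKO*) and 1 panel a family. The *Pcgf1* share is smaller and the *Pcgf2* share larger in the 3 *Tet iTKO* bars (means of 12.8% and 25.6%, against 18.5% and 18.8%), and *Cbx7* and *Phc1* fill most of their families in both groups.

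The 3 CBX chromodomain genes that passed the filter rose, beside 16.4% of all tested genes. After GC and length correction 1 of them, *Cbx2*, was higher, beside 12.5% of all genes. *Cbx2*, whose protein compacts chromatin and forms condensates, had 119, 135 and 146 normalized counts in the *Ctrl* libraries and 214, 254 and 210 in those of *Tet iTKO*, with every *Tet iTKO* library far above the *Ctrl* libraries. The means were 133 ± 13.6 and 226 ± 24.3 (SD, n = 3 each), a ratio of 1.69 and a log2 change of 0.76 (SE 0.14, limma adjusted p = 4.9e-05). *Cbx2* passed in all 17 alternative fits, with 0.46 after GC and length correction (limma adjusted p = 0.011).

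*Cbx7*, the main CBX of undifferentiated mESC, had 1048, 1107 and 1076 normalized counts in the *Ctrl* libraries and 1241, 1343 and 1464 in those of *Tet iTKO*. It was higher in every *Tet iTKO* library, with a log2 change of 0.32 (SE 0.07, limma adjusted p = 0.00017). The corrected change of 0.10 did not pass (limma adjusted p = 0.26), nor did the change without the variance trend (limma adjusted p = 0.058).

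*Cbx6* had 73, 83 and 84 normalized counts in the *Ctrl* libraries and 95, 133 and 156 in those of *Tet iTKO*. Its log2 change of 0.64 (SE 0.19, limma adjusted p = 0.0079) was 0.34 after correction (limma adjusted p = 0.2) and 0.49 without *Tet iTKO* replicate 3 (limma adjusted p = 0.096), and without the variance trend its adjusted p was 0.064. *Cbx6* shares 9.7% of its exon bases with *Npcd* on the same strand, so reads there could be left out as ambiguous. *Cbx8*, which is induced on differentiation, had 4, 13 and 2 normalized counts in the *Ctrl* libraries and 3, 4 and 1 in those of *Tet iTKO*, too few to test.

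*Cbx7* made up 86.2% ± 0.902 of the summed *Cbx* level per kb in *Ctrl* and 82.8% ± 1.37 in *Tet iTKO*, and *Cbx2* 9.54% ± 0.774 and 12.5% ± 1.53 (SD, n = 3 each). Both shares were separate between groups (exact permutation p = 0.1). The log2 ratio of *Cbx2* to *Cbx7* was higher by 0.43 in *Tet iTKO*, and by 0.36 after correction.

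*Phc1* had the smallest adjusted p of the members. It encodes the main polyhomeotic protein of mESC, which joins PRC1 complexes through its SAM domain. *Phc1* had 1535, 1633 and 1693 normalized counts in the *Ctrl* libraries and 2420, 2315 and 2384 in those of *Tet iTKO*. The means were 1620 ± 79.8 and 2373 ± 53.4 (SD, n = 3 each), a ratio of 1.46. The log2 change was 0.55 (SE 0.05, limma adjusted p = 3.9e-10), and 0.38 after correction (limma adjusted p = 3.5e-07), and it passed in all 17 alternative fits. Per kb of exon it moved from the third highest of the 36 members in *Ctrl* to the second in *Tet iTKO*, above *Eed*, which moved from the second to the third.

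*Scmh1*, a further SAM-domain subunit of PRC1, had 86, 87 and 89 normalized counts in the *Ctrl* libraries and 140, 156 and 145 in those of *Tet iTKO*. The spread within groups was small beside the gap, with a ratio of means of 1.68 and a log2 change of 0.74 (SE 0.17, limma adjusted p = 0.0006). Its corrected change was also 0.74 (limma adjusted p = 0.00085), and it passed in all 17 alternative fits.

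The other polyhomeotic genes did not pass. *Phc2* was at 112 ± 7.81 normalized counts in the *Ctrl* libraries and 128 ± 9.17 in those of *Tet iTKO* (SD, n = 3 each), and *Phc3* ranged from 15 to 35 in *Ctrl* and from 23 to 35 in *Tet iTKO*. *Phc1* made up 93.0% of the summed *Phc* level per kb in *Ctrl* and 94.5% in *Tet iTKO*, without overlap. Counted together, the canonical PRC1 genes (*Pcgf2*, *Bmi1* and the *Cbx*, *Phc* and *Scmh1* genes) comprised 10 members, of which 9 were tested. This grouping is not among the sub-complex lists, and its count is no test of canonical PRC1. In the uncorrected fit 6 rose and none fell, beside 16.4% and 18.4% of all tested genes. After GC and length correction 3 rose and none fell, beside 12.5% and 13.5%. *Bmi1*, at -1.39, was the one gene of the 9 below 0 in the uncorrected fit.

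**Figure D4:**
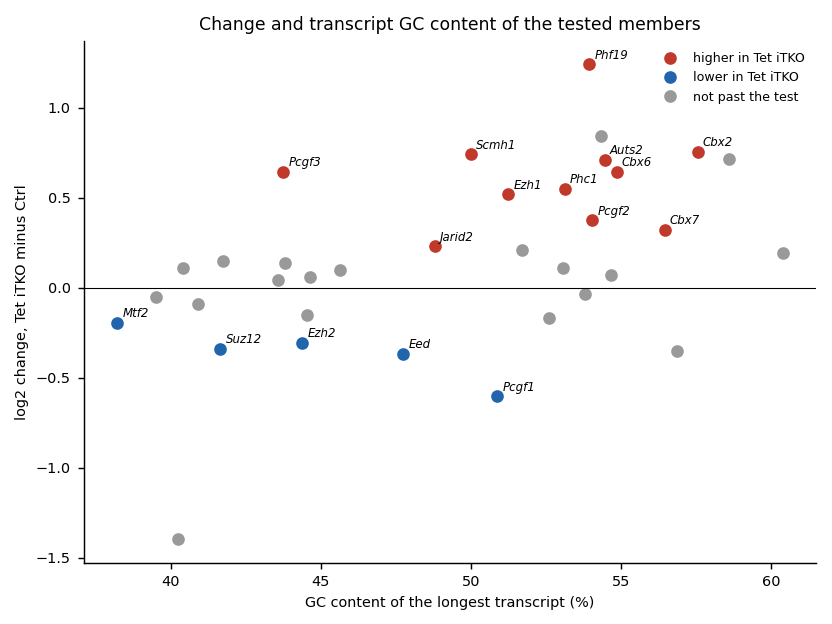
Log2 change (*Tet iTKO* minus *Ctrl*) of the 35 tested members against the GC content of the longest transcript (%); red, higher and blue, lower at adjusted p under 0.05, grey, not past it. Red points lie mostly above 48% GC, with *Pcgf3* at 43.73% the exception, and blue points reach from 38.2% to 50.87%.

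Of the 7 variant PRC1 genes, *Auts2* rose and the other 6 did not pass, near the 16.4% of all tested genes that rose. *Auts2*, which in neurons makes a PCGF3 or PCGF5 complex an activator, had 69, 102 and 99 normalized counts in the *Ctrl* libraries and 141, 144 and 153 in those of *Tet iTKO*. The *Tet iTKO* libraries were close together and above *Ctrl*, with a log2 change of 0.71 (SE 0.18, limma adjusted p = 0.0016) and 0.37 after correction (limma adjusted p = 0.12).

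*Kdm2b*, whose CXXC domain binds unmethylated CpG, had 517, 527 and 502 normalized counts in the *Ctrl* libraries and 481, 477 and 418 in those of *Tet iTKO*. It was lower in every *Tet iTKO* library, by 0.17 on the log2 scale without passing (limma adjusted p = 0.13) and by 0.42 after correction, which passed (limma adjusted p = 0.00028). *Rnf34*, on the opposite strand, covers 10.7% of its exon bases.

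*Bcorl1* had 21, 25 and 20 normalized counts in the *Ctrl* libraries and 30, 58 and 37 in those of *Tet iTKO*. The groups were separate, and the log2 change of 0.84 (95% confidence interval 0.14 to 1.55) fell short of the threshold (limma adjusted p = 0.056), but passed at equal library totals (0.93, limma adjusted p = 0.035) and without *Tet iTKO* replicate 1 (1.05, limma adjusted p = 0.039). *Bcor*, its paralogue and a corepressor of the PCGF1 complex, overlapped, at 178 ± 29.2 and 192 ± 19.7 normalized counts. *Rybp*, which binds ubiquitinated H2A, ranged from 64 to 134 normalized counts in the *Ctrl* libraries and from 94 to 108 in *Tet iTKO*. *Yaf2*, its paralogue, was at 44.0 ± 6.25 and 47.0 ± 4.36 normalized counts, and *L3mbtl2* at 791 ± 14.7 and 831 ± 72.7 (SD, n = 3 each), with a log2 change of 0.07 (95% confidence interval -0.08 to 0.22).

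None of the 3 genes of the H2A deubiquitinase PR-DUB passed in limma. *Bap1*, its catalytic subunit, had 553, 520 and 586 normalized counts in the *Ctrl* libraries and 524, 567 and 530 in those of *Tet iTKO*. The groups overlapped throughout, and the log2 change was -0.03 (95% confidence interval -0.20 to 0.14, limma adjusted p = 0.8). *Asxl1*, the cofactor that activates BAP1, was at 448 ± 46.0 and 519 ± 65.5 normalized counts (limma adjusted p = 0.089), and its change of 0.21 passed under quantile normalization (0.29, limma adjusted p = 0.019), under equal library totals (0.29, limma adjusted p = 0.015), without *Ctrl* replicate 2 (0.28, limma adjusted p = 0.045) and without *Tet iTKO* replicate 1 (0.32, limma adjusted p = 0.016), whereas GC and length correction gave -0.06. *Asxl2*, its paralogue, was at 207 ± 33.9 and 228 ± 26.6 normalized counts (SD, n = 3 each).

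Ratios of related members within a library were compared for 13 pairs, and 7 were separate between groups. As single genes, 44.1% of all tested genes were separate, and no such share was taken over ratios of other genes. The count of 7 is therefore no sign of a shift particular to these pairs. Of the 7 pairs, *Ezh1*/*Ezh2*, *Phf19*/*Mtf2*, *Jarid2*/*Mtf2*, *Cbx2*/*Cbx7* and *Bcorl1*/*Bcor* were higher in *Tet iTKO*, and *Ring1*/*Rnf2* and *Phc2*/*Phc1* were lower. Each had an exact two-sided permutation p of 0.1, which is the smallest possible here, and 0.186 after Benjamini-Hochberg adjustment over the 13 pairs, so no pair passed. The *Phc2*/*Phc1* ratio was lower by 0.36 on the log2 scale, and by 0.62 after GC and length correction, and the *Ring1*/*Rnf2* ratio by 0.30 and by 0.53. The *Phf19*/*Mtf2* ratio was higher by 1.43, and by 1.11 after correction. The *Bcorl1*/*Bcor* ratio was higher by 0.73, but by 0.39 without *Tet iTKO* replicate 2. Pairs that overlapped included *Yaf2*/*Rybp* (a difference of 0.06, exact permutation p = 0.9) and *Asxl1*/*Asxl2* (0.06, exact permutation p = 1.0).

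**Figure D5:**
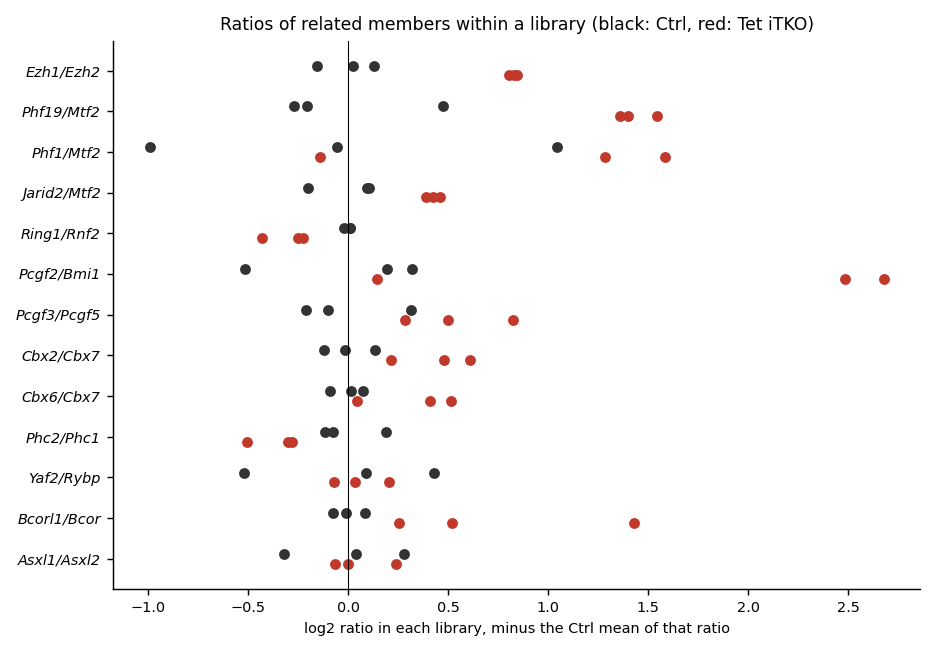
Log2 ratio of 13 pairs of related members in each library, minus the mean *Ctrl* ratio of the pair (black, *Ctrl*; red, *Tet iTKO*; 3 points each); the *Ezh1*/*Ezh2* points of the groups lie 0.83 apart on average without overlap, and those of *Asxl1*/*Asxl2* overlap.

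Among 33 further Polycomb partners listed, 27 were tested, and 6 rose and 3 fell, beside 16.4% and 18.4% of all tested genes. Besides *Rbbp4* and *Epop*, *Skp1* of the KDM2B complex had 2216, 2219 and 2041 normalized counts in the *Ctrl* libraries and 1591, 1518 and 1580 in those of *Tet iTKO*. It fell by 0.46 on the log2 scale (limma adjusted p = 2.2e-08), and by 0.22 after correction (limma adjusted p = 0.0013). *Csnk2a1*, the casein kinase subunit of AUTS2-PRC1, had 265, 353 and 221 normalized counts in the *Ctrl* libraries and 432, 356 and 384 in those of *Tet iTKO*, a log2 change of 0.50 (limma adjusted p = 0.0012). *Sfmbt2*, an MBT-domain gene, rose by 1.06 (limma adjusted p = 0.0029) although *Tet iTKO* replicate 1, at 52 normalized counts, lay within the *Ctrl* range of 26 to 54. *Kdm1b*, an H3K4 demethylase, rose by 0.50 (limma adjusted p = 0.048). With GC and length correction, 2 partners were higher (*Csnk2a1*, 0.56, and *Sfmbt2*, 0.89) and 3 lower (*Rbbp4*, *Skp1* and *Yy1*, the last at -0.50 and named after its values were seen).

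Of 6 enzymes that remove the Polycomb marks, 2 rose and none fell in limma, beside 16.4% and 18.4% of all tested genes. *Kdm6b*, an H3K27 demethylase, had 401, 373 and 368 normalized counts in the *Ctrl* libraries and 563, 632 and 636 in those of *Tet iTKO*. The groups were far apart, with a log2 change of 0.68 (SE 0.09, limma adjusted p = 9.7e-08), yet the corrected change was 0.17 and did not pass (limma adjusted p = 0.14). *Usp21*, an H2A deubiquitinase, rose by 0.24 with overlapping groups (limma adjusted p = 0.03), and neither passed after correction. *Kdm6a*, the X-linked H3K27 demethylase, did not pass (-0.15, limma adjusted p = 0.53).

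Of 32 developmental regulators known as Polycomb targets in stem cells, 23 were below the filter, with means of at most 9.33 normalized counts and 4 of them at 0 in every library. Of the 9 tested, 5 rose and 1 fell, beside 16.4% and 18.4% of all tested genes, and *Wt1* and *Gata4* among these were tested only because of their *Tet iTKO* values, so this count is no measure of the whole list.

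*Bmp7*, a secreted growth factor, had 26, 37 and 26 normalized counts in the *Ctrl* libraries and 49, 78 and 62 in those of *Tet iTKO* (log2 change 1.06, limma adjusted p = 0.0042). *Wt1*, a regulator of kidney and gonad, had 2, 5 and 2 in *Ctrl*, against 21, 15 and 20 in *Tet iTKO* (log2 change 2.37, limma adjusted p = 0.0044). *Gata4*, an endoderm and heart factor, had 2, 7 and 10 in *Ctrl*, against 21, 12 and 27 in *Tet iTKO* (log2 change 1.64, limma adjusted p = 0.03). These 3 genes were higher in every *Tet iTKO* library.

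*Olig1*, a neural factor, rose by 0.46 on the log2 scale (238, 258 and 176 normalized counts in *Ctrl*; 272, 297 and 351 in *Tet iTKO*; limma adjusted p = 0.0044). *Tbx3*, which is expressed in undifferentiated mESC, fell by 0.24 with overlapping groups (limma adjusted p = 0.025), and by 0.50 after correction (limma adjusted p = 1.1e-05). With correction, *Wt1* (2.25) and *Bmp7* (0.85) were among 3 target genes that were higher, *Tbx3* was lower, and *Gata4* and *Olig1* did not pass (limma adjusted p = 0.087 and 0.11). Binding of Polycomb proteins and histone marks were not measured in these libraries.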

How the data were processed

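Total RNA of sorted *Ctrl* and *Tet iTKO* mESC (3 libraries each) was sequenced as paired reads of 50 bases. Per the labels and the study's methods, the authors aligned reads with STAR, counted them per gene with HTSeq 0.7.1 and divided the counts by DESeq2 1.26.0 size factors, and the submitters' processing notes name mm9. The annotation is not given in the sources used here. The counting setting keeps the reads of 1 strand, and since Smart-Seq2 does not keep strand, only part of a gene's reads was counted, and reads of opposite-strand neighbours can enter. What the authors deposited are normalized counts, rounded to integers (unit: score), so that the number of counted reads in each library is unknown and no count model was run.

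Identifiers were matched, without version, to GENCODE M21 (GRCm38), which gave 20775 of 22380 a symbol, exon length and GC content. The test was limma 3.58.1 (R 4.3.3, eBayes with trend) on log2(normalized count + 1), over all genes averaging 10 or more, adjusted by Benjamini-Hochberg. Fold changes on this scale understate those of low genes. The correction subtracts, per library, a loess fit (span 0.3) on GC content and log2 length. Ratios were compared by exact permutation. Tables were handled in Python 3.11.15. The scripts' test was tried on simulated data. Members and lists were chosen with earlier results of these data known. All 36 members are named, with values per library for those with an adjusted p under 0.05 and for *Ezh1*, *Ezh2*, *Ring1*, *Rnf2* and *Bap1*. Some others are given per library too. In the further lists, at most the 6 largest changes with an adjusted p under 0.05 are named; *Thy1*, the *Tet* genes and *Kdm6a* were added, and 1 target gene is not reported here. Alternatives were pseudocounts of 0.5 and 4, means above 0 or of at least 50, trimmed-mean, quantile and equal-total scaling, no trend, a replicate block, the correction with and without that block, a log2 change of at least 0.5, and fits without each library.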

Additional observations from a re-analysis of the deposited data

How the results depend on the processing

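No member that passed reversed its direction in any alternative, and 8 (*Ezh2*, *Eed*, *Pcgf3*, *Cbx2*, *Cbx7*, *Phc1*, *Scmh1* and *Auts2*) passed in every fit without 1 library. Of 586 member values under alternatives, 474 kept direction and call, 66 lost a call, 15 gained one and 31 reversed. The cause of these changes was not tested.

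Members that rose numbered 7 without the variance trend, and 5 after GC and length correction, with or without the replicate block, against 11. Members that fell numbered 3 with a mean above 0, 2 at equal totals, 2 after correction in both forms and 1 with a log2 change of at least 0.5, against 5. Without 1 library, 8 to 10 rose and 2 to 5 fell (2 without *Ctrl* replicate 2 or *Tet iTKO* replicate 3, 3 without *Ctrl* replicate 1 or *Tet iTKO* replicate 2). At equal totals, 61.9% of all genes that passed were higher, against 47.2%, and the median log2 change of all genes was 0.096. For partners that rose (6), the count was 3 with a mean above 0, 1 without trend, 2 after correction in both forms, 2 with a log2 change of at least 0.5 and 3 to 5 without 1 library (3 without *Tet iTKO* replicate 1); partners that fell (3) numbered 0 at that fold and 3 to 4 without 1 library. Opposing enzymes that rose (2) numbered 1 with a mean above 0, without trend and at that fold, 0 after correction in both forms, and 1 to 2 without 1 library (1 without *Ctrl* replicate 1 or 2 or *Tet iTKO* replicate 2 or 3). Target genes that rose (5) numbered 8 with a mean above 0, 2 with a mean of at least 50, 3 without trend and after correction in both forms, and 2 to 6 without 1 library (3 without *Tet iTKO* replicate 1, 2 without *Tet iTKO* replicate 3). The 1 target gene that fell, *Tbx3*, was lost (0) with a mean above 0, at equal totals, without trend, at that fold, and without *Ctrl* replicate 1 or 3 or *Tet iTKO* replicate 2 or 3 (0 to 1). Separate ratios of related members numbered 7 to 9 without 1 library.

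Reversals, all of members that did not pass, were these log2 changes. After GC and length correction, in both forms, they were 0.13 for *Rnf2*, 0.057 for *Pcgf6*, -0.24 for *Phc2*, -0.032 for *Phc3*, -0.20 for *Bcor*, -0.10 for *L3mbtl2* and -0.060 for *Asxl1*. Under quantile normalization they were 0.033 for *Rnf2*, -0.035 for *Pcgf5*, -0.11 for *Phc3*, -0.013 for *Rybp*, -0.080 for *Yaf2* and 0.043 for *Bap1*, and at equal totals 0.034 for *Rnf2* and 0.052 for *Bap1*. Without 1 library, the range was -0.19 to 0.0051 for *Aebp2*, -0.048 to 0.21 for *Pcgf5*, -0.18 to 0.40 for *Phc3*, -0.25 to 0.27 for *Rybp*, -0.00029 to 0.12 for *L3mbtl2* and -0.076 to 0.010 for *Bap1*.

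The deviations of same-numbered libraries from their group means correlated at 0.000706, -0.0054 and -0.0031, so no pairing by replicate number was seen in the values. These correlations cannot tell whether same-numbered libraries were prepared together. With the replicate block, 11 members rose and 5 fell, as without it, and 3742 genes passed, against 3665.

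Rounded values from an unknown number of counted reads limit genes at a few normalized counts, and 3 libraries a group limit small changes. RNA levels say nothing of protein or complex levels.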
